A study of Homo sapiens with 6 samples.

Results

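Protein phosphatase 6 (PP6) is a serine/threonine phosphatase built from a catalytic subunit, PPP6C, a regulatory subunit with a SAPS domain (PPP6R1, PPP6R2 or PPP6R3) and an ankyrin-repeat subunit (ANKRD28, ANKRD44 or ANKRD52). The genes of these 7 subunits were taken by their Ensembl identifiers from tables of 60671 genes. ANKRD52 was chosen by its higher level after FOXL2 depletion in these same libraries, so its values are given as a description with no p-value. Counts of genes called include it, but its call is no support for its difference. The other 6 were listed because they encode subunits of the same enzyme. PPP6R1 also stands, like ANKRD52, on the list of differentially expressed genes that the study drew from these libraries, so its test is not independent of that list.

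The cells were KGN, a human granulosa cell line of tumour origin, which had been genome-edited to carry 2 wild-type alleles of FOXL2 in all libraries. FOXL2 is a forkhead transcription factor that maintains the identity of granulosa cells. In the 3 FOXL2 siRNA libraries the cells had received 30 pmol of a pool of 3 siRNAs against FOXL2, and in the 3 control siRNA libraries they had received as much of a scrambled siRNA. RNA was extracted after 30 h and sequenced as stranded mRNA libraries. The 3 pools were drawn from 4 siRNAs. 1 siRNA was in every pool, and each of the other 3 was missing from a different pool, so a library and its siRNA mixture cannot be told apart. Whether the edited line is 1 clone is not given in the sources used here, and the labels do not say that the replicates came from separate cultures, so that a p-value measures only the spread between these libraries.

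PP6 is known for removing the activating phosphate of Aurora A on the mitotic spindle, for acting on DNA-PK after DNA breaks, and for acting on MOB1 in the Hippo pathway. Together with ANKRD52, PPP6C is also known for removing the phosphates that Argonaute proteins carry when they have released a target, so that they can be loaded on the next one. The regulatory subunits are thought to direct the catalytic subunit to its substrates, and the ankyrin-repeat subunits to bind the regulatory ones.

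The total expected counts lay between 23843192 and 28791954 per library. FOXL2 stood at 9.88, 9.71 and 10.8 CPM in control siRNA replicates 1, 2 and 3 and at 2.64, 3.31 and 2.36 CPM in FOXL2 siRNA replicates 1, 2 and 3 (CPM, read counts scaled to the library size after TMM normalization). It fell by 1.88 on the log2 scale (SE 0.142, edgeR adjusted p = 0.00267, where p-values of the quasi-likelihood test were adjusted by Benjamini-Hochberg over 15663 genes), which left 27.3% of the control level. FOXL2 siRNA replicate 2 stood apart on the first principal component, with a score of 40.9 where the other 5 libraries lay between -17.2 and -0.0247. Of 12 granulosa markers, 6 passed the filter on low counts, among them NR5A1, AMH and STAR, whereas WT1 and FSHR were listed at 0 in every library and GATA4, AMHR2, INHA and CYP19A1 at 0.68 TPM or less. The summed TPM (a level that is also scaled to transcript length) of the 12 lay between 116 and 125 with the control siRNA and between 102 and 117 with the FOXL2 siRNAs. Of the 4 immune markers, CD3E was listed at 0 and PTPRC at 1.01 TPM or less, and the sum, nearly all from CD68, lay between 73.0 and 86.3 TPM and between 52.8 and 70.5 TPM. The 3 endothelial markers summed to between 0.41 and 0.97 TPM and the 3 epithelial ones to between 1.88 and 2.57 TPM over all libraries. Of the 4 theca or stroma markers, CYP17A1 was at 0.05 TPM or less, whereas COL1A1 lay between 4743 and 5634 TPM. The part of these markers in the results that follow was not tested.

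All 7 subunit genes passed the filter on low counts. The test called 40 of 15663 genes, 0.255%, and 1 of the 7 subunit genes, which was ANKRD52. Because ANKRD52 had been selected on this contrast, its call is no independent test. edgeR called 0 of the other 6, of which PPP6C and PPP6R1 had an unadjusted p under 0.05, as had 2114 (13.5%) of all genes tested. DESeq2 called 353 of 11520 genes, 3.06%, and 2 of the 7, ANKRD52 and PPP6R1. Control and FOXL2 siRNA libraries were fully separated in CPM for 20.5% of the 15663 genes and for 3 of the 7 subunit genes, ANKRD52 and PPP6C above the control and PPP6R1 below it. Because ANKRD52 was selected on this contrast and PPP6R1 is on the study's list, this count cannot be read as an excess. Among the subunit genes outside that selection and list, PPP6C was the only one separated.

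**Figure D1:**
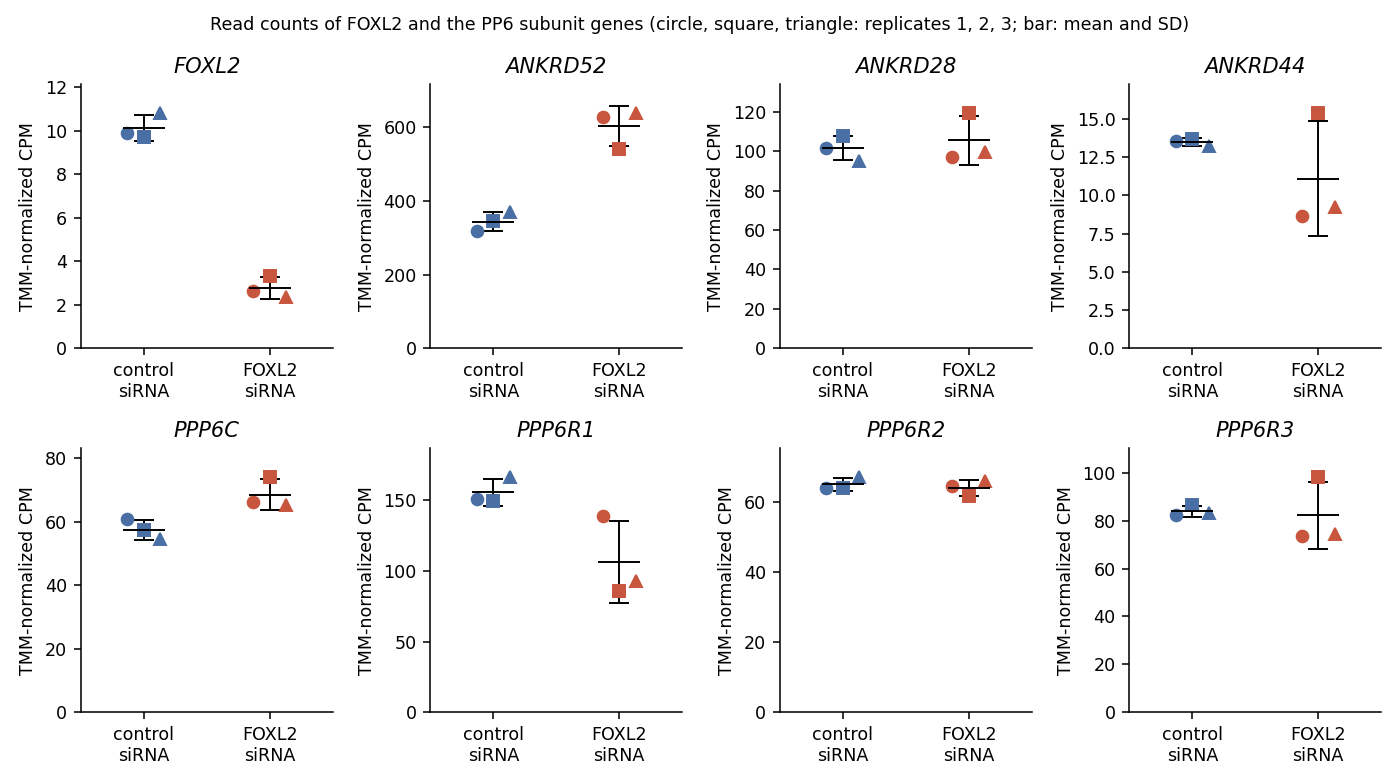
TMM-normalized CPM (vertical axes, from 0) of FOXL2 and the 7 PP6 subunit genes in the 3 control siRNA (blue) and 3 FOXL2 siRNA (red) libraries; the symbol gives the replicate, and the bars give the mean and SD of 3 libraries. The groups are apart in FOXL2, ANKRD52, PPP6C and PPP6R1, and FOXL2 siRNA replicate 2 (square) is the highest library in ANKRD28, ANKRD44, PPP6C and PPP6R3.

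ANKRD52 (ENSG00000139645) spans 56237807 to 56258391 of chromosome 12 (GRCh38, minus strand). The 250 bases before its start site (RefSeq, GRCh38.p14, chr12:56258385-56258634, minus strand) and those before the start site of PPP6R1 (chr19:55259018-55259267, minus strand) are shown because these genes had the highest and the lowest fold change of the 7. Capitals mark GC boxes (GGGCGG on either strand).
ANKRD52: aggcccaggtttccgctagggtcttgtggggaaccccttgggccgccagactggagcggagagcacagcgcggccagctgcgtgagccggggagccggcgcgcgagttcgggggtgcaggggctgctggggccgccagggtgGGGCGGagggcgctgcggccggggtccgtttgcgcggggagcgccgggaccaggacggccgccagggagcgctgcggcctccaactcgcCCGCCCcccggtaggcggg
PPP6R1: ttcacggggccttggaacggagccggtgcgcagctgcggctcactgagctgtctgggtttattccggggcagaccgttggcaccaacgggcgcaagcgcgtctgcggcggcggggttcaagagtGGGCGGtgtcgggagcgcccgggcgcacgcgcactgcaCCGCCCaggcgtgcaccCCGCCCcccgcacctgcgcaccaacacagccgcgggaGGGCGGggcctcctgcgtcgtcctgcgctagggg
Both were rich in G and C, with 77.6% in ANKRD52 and 73.6% in PPP6R1, and held 2 and 4 GC boxes, a word present in 45.0% of the 35116 promoter windows (250 bases before and 50 after a start site). The forkhead word TGTTTAC, searched on both strands, was in neither window and in 3.42% of all promoters. The study's own high-affinity DNA site, AAAHAAA (H is any base but G), was also in neither and in 21.2% of all promoters. Of the 7 genes, ANKRD28 was the one with either word, each in 2 of its 4 promoter windows. The windows with TGTTTAC overlap and share the same copy of it. It is shown here in capitals (chr3:15798185-15798230, minus strand), since ANKRD28 is the ankyrin-repeat gene nearest to ANKRD52 in level with the control siRNA.
ANKRD28: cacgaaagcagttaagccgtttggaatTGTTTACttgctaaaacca
A match is a description of the letters in these windows and not a binding site. The windows leave out introns and most intergenic sequence, where work cited by the study placed FOXL2 peaks. A missing word thus does not show that a gene lacks a site.

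The study also tested how FOXL2 binds RNAs with closely spaced pairs of G. The motif that it reported held 8 pairs, so a run of 6 pairs is a looser rule. A run of 6 pairs with gaps of 1 to 4 bases was in the longest transcript (GENCODE v29) of 46.0% of the 15530 genes tested that had one, and in those of ANKRD52, ANKRD28, PPP6R1 and PPP6R2 among the 7. The shortest run of each is shown, 5′ to 3′, with each stretch of at least 2 G in capitals, in which a G can also serve as a gap.
ANKRD52, 3′ UTR, chr12:56243025-56243041, minus strand: GGtGGaGGGGGcGGaGG
ANKRD28, 5′ UTR, chr3:15859593-15859609, minus strand: GGcGGcGGcGGcGGcGG
PPP6R1, 5′ UTR, chr19:55258483-55258501, minus strand: GGcGGcGGGGcGGGGGGGG
PPP6R2, 3′ UTR, chr22:50444527-50444543, plus strand: GGtGGGGGtGGGGGtGG
ANKRD52 had 8 separate runs of this kind, the most of the 7, in a transcript of 8688 bases whose 3′ UTR takes 5338. PPP6R1 had 3 runs in 3961 bases, and ANKRD44, PPP6C and PPP6R3 had none. A run of 8 pairs was in 19.3% of the genes tested and in ANKRD52, ANKRD28 and PPP6R2, with 1, 3 and 1 separate runs. PPP6R1 had none of this kind.

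Among the ankyrin-repeat subunits, ANKRD52 was higher after FOXL2 depletion, for which it had been selected. ANKRD28 and ANKRD44, which were not selected in this way, did not pass the test. ANKRD52 had 7996, 8439 and 9889 expected counts in control siRNA replicates 1, 2 and 3 and 17184, 13058 and 18431 in FOXL2 siRNA replicates 1, 2 and 3. After normalization these were 319, 344 and 369 CPM against 629, 540 and 639 CPM. The lowest FOXL2 siRNA library, replicate 2, lay above the highest control library. The means were 344 ± 25.2 and 603 ± 54.8 CPM (SD, n = 3 each), a 1.75-fold difference, and the log2 fold change was 0.81 (SE 0.0835). In TPM the libraries stood at 60.5, 63.3 and 65.8 against 111, 103 and 114, so that the ratio was nearly the same on the scale per length, 173% of the control against 175% in CPM. FOXL2 siRNA replicates 1, 2 and 3 were at 183%, 157% and 186% of the control mean. Leaving out any 1 library gave values from 0.76 to 0.88, the highest without FOXL2 siRNA replicate 2. In a bulk library, more RNA per cell and more cells of a kind that holds it cannot be told apart. It was larger in 163 of the 15663 genes, and 3 genes had both a larger fold change and a higher mean CPM. With the control siRNA, 427 of the genes tested had a higher mean CPM than ANKRD52, and with the FOXL2 siRNAs 194 had.

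ANKRD28 (ENSG00000206560, chromosome 3, 15667236 to 15859771, minus strand), a subunit that pairs with PPP6R1 in known PP6 complexes, stood at 102, 107 and 95.1 CPM with the control siRNA and 97.1, 119 and 99.7 CPM with the FOXL2 siRNAs. The groups overlapped, and replicate 2 of the FOXL2 siRNAs was the highest of the 6. The log2 fold change was 0.05 (SE 0.0898, edgeR adjusted p = 0.830), and its sign turned without that library. In TPM the order was slightly the other way, with 56.1 ± 4.60 in the control and 54.3 ± 2.75 after depletion (SD, n = 3 each).

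ANKRD44 (ENSG00000065413, chromosome 2, 196967017 to 197311173, minus strand), the least abundant of the 3, had 340, 336 and 355 expected counts with the control siRNA and 236, 373 and 266 with the FOXL2 siRNAs. The control libraries agreed closely in CPM, at 13.6, 13.7 and 13.2. In TPM they were farther apart, at 8.96, 7.92 and 5.91, and FOXL2 siRNA replicates 1, 2 and 3 were at 6.15, 9.8 and 4.82. In CPM the FOXL2 siRNA libraries were split, with replicates 1 and 3 at 8.64 and 9.23 and replicate 2 at 15.4, above every control. The log2 fold change was -0.29 (SE 0.196, edgeR adjusted p = 0.543). Without FOXL2 siRNA replicate 2 it was -0.60 (SE 0.0935, edgeR adjusted p = 0.0115). That fit left out the FOXL2 siRNA library that lay above the controls. It called 579 genes over all genes, where the fit of all 6 libraries called 40. When edgeR took RSEM's effective lengths into account, all 6 libraries gave -0.15 for ANKRD44 (SE 0.241, adjusted p = 0.846). In TPM replicate 3 was below every control, but replicate 1, at 6.15, lay above the lowest control, at 5.91. The pools of replicates 1 and 3 share an siRNA that the pool of replicate 2 lacks, as holds for any 2 of the 3 pools. The part of single siRNAs was not tested. Replicate 2 is also the library that stood apart over all genes.

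PPP6C (ENSG00000119414, chromosome 9, 125146573 to 125189939, minus strand), the catalytic subunit and the partner of every complex, stood at 60.7, 57.3 and 54.4 CPM with the control siRNA and 66.1, 74.2 and 65.4 CPM with the FOXL2 siRNAs. Each FOXL2 siRNA library lay above each control library. For any such separation, an exact permutation test of 3 against 3 gives its smallest possible two-sided p, 0.1. The means were 57.5 ± 3.15 and 68.5 ± 4.90 CPM (SD, n = 3 each), 119% of the control. The log2 fold change of 0.25 (SE 0.0755) did not pass the test over all genes, with an adjusted p of 0.218 in edgeR and of 0.139 in DESeq2. In TPM the gap between the groups was narrow, with 28.1 in the highest control library and 28.3 in the lowest FOXL2 siRNA library, and the ratio was 112%. Without FOXL2 siRNA replicate 2 the log2 fold change was 0.19 (SE 0.0653, edgeR adjusted p = 0.176).

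Of the regulatory subunits, PPP6R1 was lower in 2 of the 3 FOXL2 siRNA libraries by much more than the control libraries differed, and PPP6R2 and PPP6R3 had mean levels near those of the control. PPP6R1 (ENSG00000105063, chromosome 19, 55229780 to 55258995, minus strand) stood at 151, 149 and 167 CPM with the control siRNA. With the FOXL2 siRNAs replicate 1 was at 139 CPM, 89.4% of the control mean, and replicates 2 and 3 were at 86.1 and 93.1 CPM, 55.3% and 59.7%. The groups did not overlap (again the smallest possible two-sided p of that exact permutation test, 0.1). However, replicate 1 lay closer to the lowest control than to the other FOXL2 siRNA libraries. The means were 156 ± 9.51 and 106 ± 28.9 CPM (SD, n = 3 each). The log2 fold change was -0.55 (SE 0.159), with an adjusted p of 0.200 in edgeR and of 0.00967 in DESeq2, so the call depends on the tool. Without FOXL2 siRNA replicate 1 it was -0.80 (SE 0.0780, edgeR adjusted p = 0.00377). That fit left out the FOXL2 siRNA library nearest to the controls, and it called 105 genes over all genes, where the fit of all 6 libraries called 40. The pools of replicates 2 and 3 share an siRNA that the pool of replicate 1 lacks, which again holds for any 2 of the 3 pools. The part of single siRNAs was not tested here either. RSEM's count of PPP6R1 was not whole in any of the 6 libraries, so reads were divided between it and another gene. A transcript on the same strand, AC010327.5, overlaps 500 bases of it and had 3.49 ± 0.318 CPM with the control siRNA and 3.15 ± 0.630 CPM with the FOXL2 siRNAs (SD, n = 3 each).

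PPP6R2 (ENSG00000100239, chromosome 22, 50343304 to 50445090, plus strand) varied least, at 63.8, 63.8 and 67.1 CPM with the control siRNA and 64.3, 61.5 and 65.9 CPM with the FOXL2 siRNAs. Its log2 fold change was -0.02 (SE 0.0620, edgeR adjusted p = 0.912). PPP6R3 (ENSG00000110075, chromosome 11, 68460731 to 68615334, plus strand) stood at 82.1, 86.3 and 83.1 CPM with the control siRNA. With the FOXL2 siRNAs it was at 73.5 and 74.6 CPM in replicates 1 and 3, below every control, and at 98.3 CPM in replicate 2, above every control. Its log2 fold change was -0.03 (SE 0.108, edgeR adjusted p = 0.930), and in CPM a mean difference near 0 stood here for libraries on both sides of the control. In TPM replicates 1 and 3 were also below every control, at 46.4 and 48.0. Replicate 2, at 56.0 TPM, lay within the control range of 49.7 to 56.4 TPM.

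**Figure D2:**
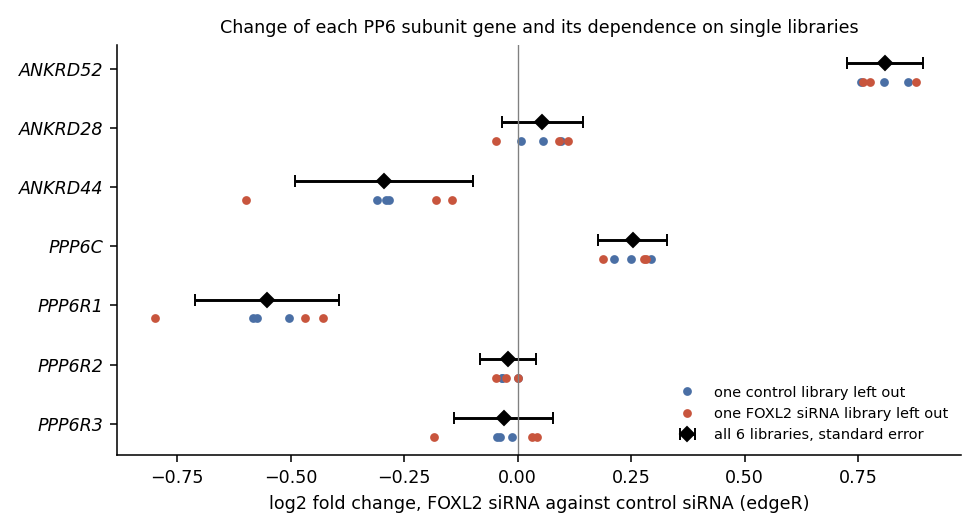
Log2 fold change of each PP6 subunit gene (horizontal axis, FOXL2 siRNA against control siRNA, edgeR). Diamonds with bars give the value and standard error over all 6 libraries, and dots the values with 1 control library (blue) or 1 FOXL2 siRNA library (red) left out. ANKRD52 stays between 0.76 and 0.88 and PPP6R1 between -0.80 and -0.43, whereas ANKRD28, PPP6R2 and PPP6R3 lie on both sides of 0.

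Levels of different genes were compared in TPM. With the control siRNA, PPP6R1 was the most abundant of the 7, at a mean of 69.0 TPM, followed by ANKRD52 at 63.2, ANKRD28 at 56.1, PPP6R3 at 52.7, PPP6R2 at 34.1, PPP6C at 26.6 and ANKRD44 at 7.60 TPM. Neighbours in this order did not overlap between libraries, except ANKRD28 and PPP6R3. With the FOXL2 siRNAs ANKRD52 came first at 109 TPM, ANKRD28, PPP6R3 and PPP6R1 overlapped with their neighbours at 54.3, 50.1 and 48.0 TPM, and PPP6R2, PPP6C and ANKRD44 followed at 33.4, 29.9 and 6.92 TPM.

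The share of each gene in the summed TPM of its class was also computed. TPM covers all annotated transcripts of a gene. The 2 coding transcripts of ANKRD28 have 6383 and 6564 bases, but its estimated length was 2784 to 2885 bases with the control siRNA. Shorter transcripts thus took part of its TPM. In CPM the mean share of ANKRD52 among the 3 ankyrin-repeat genes was 74.9 ± 2.10% with the control siRNA and 83.7 ± 3.19% with the FOXL2 siRNAs. ANKRD52 took 47.5%, 48.5% and 53.7% of the summed TPM of the 3 ankyrin-repeat genes with the control siRNA and 65.9%, 61.0% and 65.2% with the FOXL2 siRNAs. Its mean share was 49.9 ± 3.34% and 64.0 ± 2.66% (SD, n = 3 each), 14.2 percentage points apart, a description that follows from the gene's selection. The share of ANKRD28 was correspondingly 44.1 ± 2.31% and 31.9 ± 1.38%. Among the regulatory genes PPP6R1 took 44.0%, 42.8% and 46.1% with the control siRNA and 43.6%, 30.6% and 34.5% with the FOXL2 siRNAs, so that in FOXL2 siRNA replicate 1 it lay within the control range. The share of PPP6R2, whose own level hardly differed, was 21.9 ± 0.476% and 25.5 ± 1.90%, without overlap. That of PPP6R3 was 33.8 ± 1.95% and 38.3 ± 5.28%, with overlap.

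Summed over each class, the ankyrin-repeat genes had 127, 131 and 123 TPM with the control siRNA and 168, 168 and 175 TPM with the FOXL2 siRNAs. The regulatory genes had 150, 160 and 157 TPM and 141, 129 and 125 TPM. These differences came from ANKRD52, which was selected on this contrast, and from PPP6R1, which is on the study's list. Without them, ANKRD28 and ANKRD44 together had 63.6 ± 6.01 and 61.3 ± 4.15 TPM, and PPP6R2 and PPP6R3 together 86.8 ± 4.21 and 83.5 ± 5.16 TPM (SD, n = 3 each). With all genes included, the ratio of the ankyrin-repeat to the regulatory sum was 0.815 ± 0.0348 with the control siRNA and 1.30 ± 0.102 with the FOXL2 siRNAs (SD, n = 3 each). Per TPM of PPP6C, the ankyrin-repeat sum was 4.78 ± 0.136 and 5.72 ± 0.385, and the regulatory sum 5.87 ± 0.374 and 4.42 ± 0.494 (SD, n = 3 each). Over all 7 genes the sums were much closer, at 309 ± 8.37 and 332 ± 4.72 TPM. The ratio of ANKRD52 to PPP6R1 was 0.916, 0.925 and 0.908 with the control siRNA and 1.81, 2.60 and 2.65 with the FOXL2 siRNAs, a difference fixed by the choice of these genes. These are ratios of TPM, which covers all transcripts of a gene, and the amount of each assembled complex was not measured.

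RSEM also estimates a length for each gene in each library, which is the mean length of its transcripts weighted by their TPM. For ANKRD52 it was 7994, 8283 and 8304 bases with the control siRNA and 8474, 8462 and 8471 bases with the FOXL2 siRNAs, without overlap. The same separation in this direction was found in 7.38% of the 12851 genes whose length varied. The annotation gives ANKRD52 a single coding transcript and 3 short non-coding ones of 393 to 651 bases, so the length fixes the share of each class within narrow bounds. The short transcripts took between 8.37% and 8.64% of the gene's TPM in control siRNA replicate 1, between 4.88% and 5.04% in replicate 2 and between 4.63% and 4.77% in replicate 3. In the 3 FOXL2 siRNA libraries they took between 2.58% and 2.81%. The coding transcript stood at 55.3 to 62.8 TPM in the control libraries and at 99.7 to 111 TPM in the FOXL2 siRNA libraries. The short ones together stood at 5.06 to 5.23 TPM in control siRNA replicate 1 and at 3.04 to 3.19 TPM in the other 2, against 2.79 to 3.08 TPM after depletion. The higher level of the gene thus lay in the coding transcript. In the other 6 genes the lengths of the groups overlapped, and none passed limma's test of length, with adjusted p-values between 0.907 and 1.0. That test called 0 of the 12851 genes, and 685 had an unadjusted p under 0.05.

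**Figure D3:**
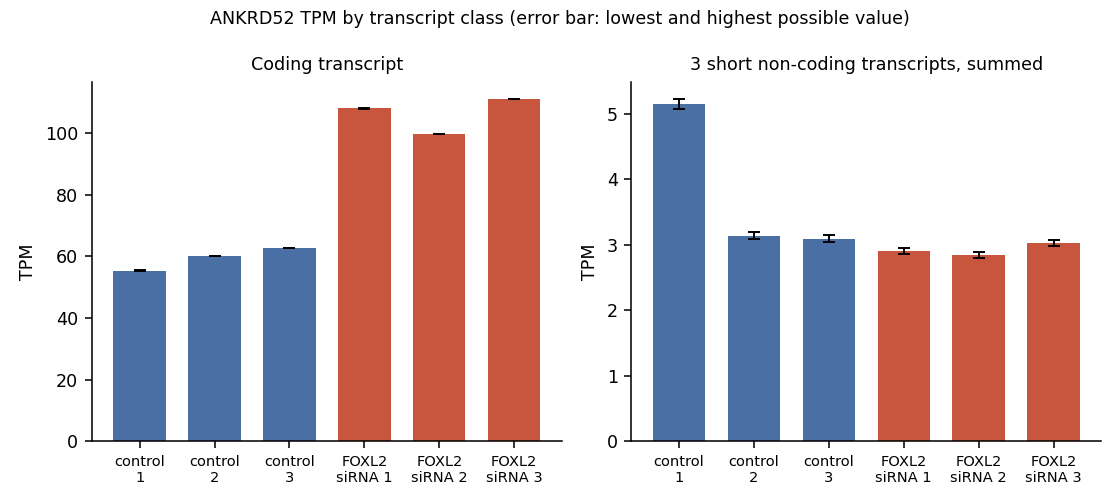
TPM (vertical axes, from 0, with different scales) of the coding transcript of ANKRD52 (left) and of its 3 short non-coding transcripts together (right) in each library, derived from RSEM's gene length; the error bars span the lowest and highest values that the lengths allow. The coding transcript is at 55.3 to 62.8 TPM in the control libraries and 99.7 to 111 TPM in the FOXL2 siRNA libraries, and the short ones stand out in control siRNA replicate 1 at 5.06 to 5.23 TPM.

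RSEM's counts were whole in 6 of 6 libraries for ANKRD52, ANKRD28, ANKRD44, PPP6C and PPP6R2 and in 2 of 6 for PPP6R3. Among their neighbours, SLC39A5 overlaps ANKRD52 by 40 bases on the opposite strand and had at most 4 counts in a library. SBF1 overlaps PPP6R2 by 91 bases on the opposite strand and stood at 200 ± 8.49 and 204 ± 14.6 CPM (SD, n = 3 each), 0.03 apart on the log2 scale (SE 0.0693, edgeR adjusted p = 0.905). The pseudogene PRPS1P2 lies within PPP6C on the opposite strand and had between 34 and 55 counts and a log2 fold change of -0.22 (SE 0.222, edgeR adjusted p = 0.700). Since the strand setting of the counting is not known here, reads of such partners on opposite strands may not have been told apart.

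The genes around PP6 were described by lists of its substrates and partners and of related phosphatases. Of the 24 substrates and partners, 22 were tested, edgeR called 0 and DESeq2 called 1, and 2, AGO2 and AGO3, had an unadjusted p under 0.05 in edgeR, a smaller share than the 13.5% of all genes. The log2 fold change was above 0 in 14 and below 0 in 8, with a median of 0.02 where that of all genes tested was 0.0057. The gene called by DESeq2 was AGO2, an Argonaute that carries small RNAs to their targets and a substrate of PPP6C with ANKRD52. It stood at 61.7, 61.5 and 61.5 CPM with the control siRNA and at 112, 82.4 and 95.7 CPM with the FOXL2 siRNAs, a log2 fold change of 0.65 (SE 0.103), with an adjusted p of 0.0510 in edgeR and 2.97e-06 in DESeq2. On the scale per length the groups overlapped. AGO2 had 14.7 ± 2.78 TPM with the control siRNA and 16.7 ± 3.77 TPM with the FOXL2 siRNAs (SD, n = 3 each), and when the effective lengths from RSEM entered the fit as offsets its log2 fold change was 0.19 in edgeR (adjusted p = 0.712) and 0.18 in DESeq2 (adjusted p = 0.859). Its estimated length was 5287 to 7231 bases in the control libraries and 7955 to 10661 bases after depletion.

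None of the other substrates passed either test. In CPM the groups were separated in AGO1, AGO2, AGO3 and TPX2, against 20.5% of all genes. AGO3 and AGO1, Argonautes like AGO2, had log2 fold changes of 0.21 and 0.11 and edgeR adjusted p-values of 0.328 and 0.523, and in TPM their groups overlapped. TPX2, which activates Aurora A on the spindle, was at -0.05 (edgeR adjusted p = 0.722). MOB1B and MOB1A, the coactivators of the LATS kinases in the Hippo pathway, had log2 fold changes of 0.36 and 0.28 and overlapped between groups. In both, FOXL2 siRNA replicate 2 was the highest library, at 179% and 146% of the control mean in CPM. In TPM that library was at 16.34 for MOB1B and 61.65 for MOB1A, where the highest control libraries were at 15.61 and 55.87. The estimated lengths in that library were 5700 and 3215 bases, against at most 3872 and 2527 bases in the controls. AURKA, the mitotic kinase Aurora A, had 145 ± 2.55 and 151 ± 7.46 CPM (SD, n = 3 each). MAP3K7, the kinase TAK1, had the lowest log2 fold change of the list, -0.17.

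Of the subunits of PP2A, the related phosphatase with its own scaffold and regulatory proteins, 18 of 19 were tested, edgeR and DESeq2 each called 0, and 3 had an unadjusted p under 0.05 in edgeR, where 13.5% of all genes had. The median log2 fold change was -0.01 and the range -0.29 to 0.11. PPP2R5C, a regulatory subunit, was lowest, at 94.1 ± 3.99 and 76.8 ± 13.1 CPM (SD, n = 3 each). It was followed by PPP2R2B at -0.22 and PPP2R3A at -0.20, also regulatory subunits, and these 3 were those with an unadjusted p under 0.05. PPP2R1B, a scaffold subunit picked out after its values were seen, had a log2 fold change of -0.17 (SE 0.481, edgeR adjusted p = 0.912) that came from libraries far apart. It stood at 47.2, 45.9 and 43.8 CPM with the control siRNA, at 82.3 CPM in FOXL2 siRNA replicate 1 and at 17.7 and 21.4 CPM in replicates 2 and 3. Relative to the control mean these were 180%, 38.8% and 46.9%. Replicates 2 and 3 are also those in which PPP6R1 was lowest. PPP2R5C passed without FOXL2 siRNA replicate 2, at -0.43 (edgeR adjusted p = 0.0232). The library left out was its nearest to the controls, at 95.9% of the control mean.

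Of the 6 PP4 subunits 5 were tested, and of the 5 regulators that PP2A, PP4 and PP6 share all 5 were. Their log2 fold changes lay between -0.14 (PPP4R1) and 0.23 (PPP4R2) for PP4, with a median of 0.06, and between -0.08 and 0.11 for the shared regulators, with a median of 0.07. Of the 9 other catalytic subunits of this phosphatase family 7 were tested, with a median of 0.07. The largest value was that of PPP1CB, a catalytic subunit of PP1, at 0.32, and here too FOXL2 siRNA replicate 2 was the highest library, at 166% of the control mean in CPM. In TPM that library was at 91.45, FOXL2 siRNA replicate 1 at 89.8 and the highest control library at 83.64. edgeR and DESeq2 each called 0 genes of these 3 lists, and 0 had an unadjusted p under 0.05 in edgeR.

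**Figure D4:**
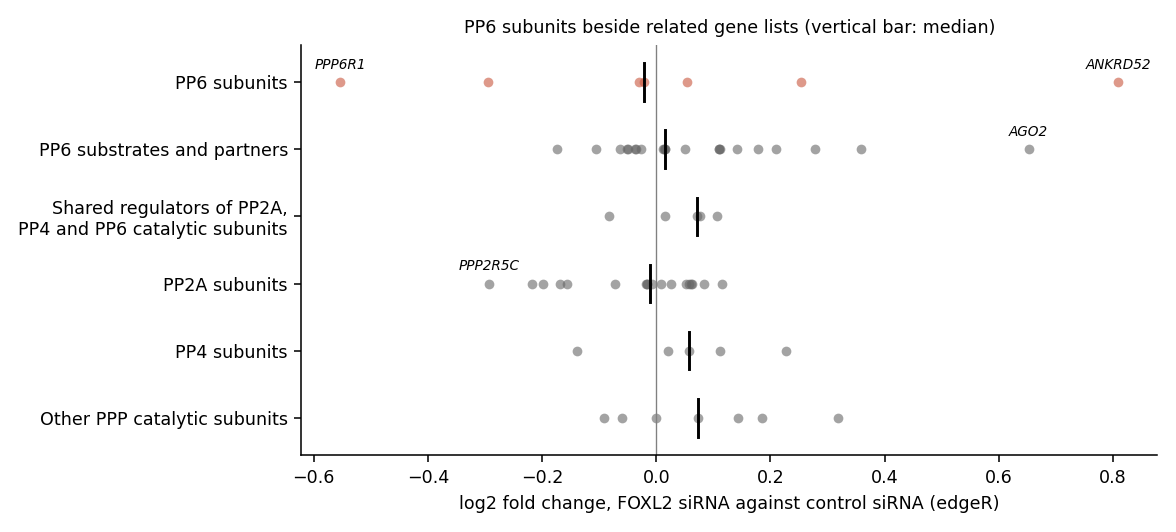
Log2 fold change (horizontal axis, FOXL2 siRNA against control siRNA, edgeR) of the 7 PP6 subunit genes (red) and of the tested genes of 5 related lists (grey), with the median of each list as a vertical bar. The medians lie between -0.02 and 0.07, and ANKRD52 at 0.81, AGO2 at 0.65 and PPP6R1 at -0.55 lie farthest from 0.

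Over the 6 libraries, the genes whose centred log2 CPM followed that of ANKRD52 most closely, of 9468 genes with a mean of at least 10 CPM, were HBEGF, SEMA7A, FAM234B, PSKH1 and AGO2. Their root-mean-square distances were 0.0669, 0.120, 0.125, 0.131 and 0.132 on the log2 scale, where the median gene was at 0.426. ANKRD52 was chosen by its higher level in this contrast, so genes with a similar fold change come close by construction. The log2 fold changes of these 5 genes lay between 0.65 (AGO2) and 0.83 (HBEGF). HBEGF, a ligand of the EGF receptor, stood at 12.4, 12.2 and 14.7 CPM with the control siRNA and 23.0, 22.1 and 24.9 CPM with the FOXL2 siRNAs. Of the other PP6 subunit genes PPP6C came closest, at rank 523 and a distance of 0.327. PPP6R1, whose log2 fold change of -0.55 had the other sign, was farthest, at rank 9366 of 9468.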

How the data were processed

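The authors aligned single reads of the 6 libraries with STAR 2.7.6a, checked them with Picard 2.8.1 and estimated expression with RSEM 1.3.1, per the submitters' processing notes. Those notes list the mouse build GRCm38, whereas all 60671 identifiers in the tables are human Ensembl genes. For the human build, the annotation and the strand setting of RSEM, the answer is not given in the sources used here. The deposited expected counts are estimated counts that were not normalized and need not be whole, and the deposited TPM values were scaled by the authors' run of RSEM to library and transcript length. The authors' gene lengths are a mean over transcripts, a score in bases, and the deposited FPKM values were not used. Coordinates are those of GENCODE v29 on GRCh38, in which 95.1% of 34765 genes with 1 transcript had the deposited length within 0.5 bases.

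Expected counts were rounded, filtered with filterByExpr (15663 genes, at least 99.9% of the counts of each library), normalized by TMM and compared with edgeR 4.0.16 (glmQLFit, glmQLFTest) under R 4.3.3. The adjustment over all genes followed Benjamini-Hochberg, and the threshold was 0.05. Lengths were tested with limma 3.58.1. Alternatives were DESeq2 1.42.0, limma-voom, limma on log2(TPM + 1), effective lengths as offsets, DESeq2's size factors, other count filters, counts not rounded, a replicate block and each library left out in turn. The tests were tested on simulated data. An adjusted p above 0.05 does not show that levels were equal, and the spread between libraries is the only measure of error. Named genes are FOXL2, the 7 subunit genes, up to 3 genes with the largest absolute log2 fold change in each list and those called, the 5 genes nearest to ANKRD52 in profile, and tested genes that overlap a subunit gene. AURKA, AGO1, AGO3, TPX2, MAP3K7 and PPP2R1B were added after their values were seen. SLC39A5, which overlaps ANKRD52 but did not pass the filter on low counts, is also named. The members and lists were chosen with earlier results of these data known. Plots were made with Python 3.11.15 and matplotlib 3.10.9.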

Additional observations from a re-analysis of the deposited data

How the results depend on the processing

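The log2 fold change of FOXL2 (-2.03 to -1.78 with 1 library left out) and that of PPP6C (0.19 to 0.29) kept their direction and their side of the threshold in all 16 alternatives. The number of genes called over all genes, 40, was 353 in DESeq2, 344 in DESeq2 when effective lengths were offsets, 70 with no filter, 64 with a mean of at least 50 counts and 13 with limma on log2(TPM + 1). It ranged from 2 to 579 with 1 library left out, with 2, 3 and 2 calls when the control library left out was replicate 1, 2 or 3, and 105, 579 and 9 calls when it was FOXL2 siRNA replicate 1, 2 or 3. The number of subunit genes called, 1, includes ANKRD52, which was selected on this contrast. This number was 2 with DESeq2 with and without the offsets, and 0 to 2 with 1 library left out. It was 0 without any 1 of the control libraries or without FOXL2 siRNA replicate 3, and 2 without FOXL2 siRNA replicate 1 (PPP6R1) or 2 (ANKRD44). PPP6R1 was called in DESeq2 at a log2 fold change of -0.56, with offsets at -0.53, and ranged from -0.80 to -0.43 with 1 library left out. ANKRD44 ranged from -0.60 to -0.15. ANKRD28 turned to -0.047 and -0.053 with effective-length offsets in edgeR and in DESeq2 and to -0.042 with limma on log2(TPM + 1), and ranged from -0.049 to 0.11 with 1 library left out. PPP6R2 ranged from -0.047 to 0.00036 and PPP6R3 from -0.18 to 0.042. Of the substrates and partners 1 gene, AGO2, was called with DESeq2, with no filter and with a mean of at least 50 counts, and 0 to 1 with 1 library left out (AGO2 without FOXL2 siRNA replicate 1 or 2). Of the PP2A subunits 0 to 1 were called with 1 library left out, PPP2R1B without FOXL2 siRNA replicate 1, the library opposite to the other 2, and PPP2R5C without replicate 2 (-0.43, adjusted p = 0.0232 from edgeR). In CPM the share of ANKRD52 differed by 8.79 points, in TPM by 14.2, and the construction differs because TPM divides by length. With 1 library left out the length difference ranged from -0.23 to 0.016 for ANKRD44, -0.031 to 0.021 for PPP6R1 and -0.025 to 0.10 for PPP6R3. The cause of these changes was not tested. Deviations from the group mean hardly correlated between libraries of the same replicate number (-0.0533, 0.0538 and 0.0678). Between libraries of different numbers the correlations lay from -0.142 to 0.112. A pairing by replicate number was thus not seen, but these values cannot exclude one. With the replicate number as a block, edgeR called 11 genes over all genes and the same number of subunit genes, 1.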
